A study of Mus musculus with 2 samples.

Results

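The cells described here come from mouse embryonic brain preparations and were picked by epithelial genes, a set labelled surface ectoderm and epithelium. They were selected on their own RNA: a cell barcode counted as a member when it held at least 1 UMI (unique molecular identifier, 1 captured RNA molecule) of at least 3 of the 11 genes Trp63, Grhl2, Esrp1, Cdh1, Epcam, Mir205hg, Fermt1, Wnt6, Cldn7, Krt8 and Krt18, and 0 UMIs of Pdgfra, Cdh5, Hnf4a and Apob. The rule found 910 of 37628 barcodes, 453 in the NTD library and 457 in the control library. After the 15% of barcodes with the highest doublet scores had been taken out of each library, 742 members remained of 31984 barcodes, 360 in the NTD library and 382 in the control library, and these are the cells used below. They are called epithelial by the rule, and the name does not hold for all of them. In cluster 3 below (71 cells) 0 of 11 rule genes counted as markers, and in cluster 10 (22 cells) 0 of 25 epidermal markers did.

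The series is a single-cell RNA measurement on the 10x Genomics Chromium platform in mouse embryos of a neural tube defect (NTD) model, with 1 library in each group. In the NTD group the dams ate a low-folate diet and were given methotrexate, a folate antagonist, by intraperitoneal injection at 1.5 mg/kg on gestational day 7.5. In the control group the dams were given normal saline. Neural tube closure was viewed at E9.5 to E10.5, and NTD embryos were smaller and delayed, with hindbrain malformations and spina bifida, so that stage and treatment cannot be told apart. The number of embryos, their sex, their exact stage and the extent of the tissue taken are not stated in the sources used. Because each group is 1 library, differences between them have no replicate check, no test was made, and every interval covers counting error only.

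Surface ectoderm is the outer epithelium of the embryo. It borders the neural plate, meets its partner at the dorsal midline as the tube closes, and gives rise to epidermis, to periderm (the flat outer layer of the early skin) and to the placodes that form lens, nasal epithelium, inner ear and anterior pituitary. Grainyhead-like and p63 transcription factors keep its epithelial state, and in mice loss of Grhl2 or Grhl3 leaves the neural tube open.

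Members held 1309543 UMIs in the NTD library and 1262256 UMIs in the control library, with medians of 2880 UMIs a cell in NTD and 2735 UMIs a cell in control. All other kept barcodes had medians of 2426 UMIs in NTD and 2155 UMIs in control. Only 1 member barcode was shared by the libraries. The deepest NTD member held 28917 UMIs, 2.21% of all NTD member UMIs. Levels below are UMIs summed over the members of a library and divided by the library's total (CPM, with a common total of 1e6), scaled by TMM, which left the median log2 ratio of NTD over control at 0.02. Scaling by UMI totals put it at -0.16, and ribosomal protein genes took 11.5% of member UMIs in NTD and 7.06% in control, against 12.7% in NTD and 8.34% in control in the other barcodes.

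Members made up 2.22% of kept barcodes in the NTD library (95% exact Clopper-Pearson interval 2.00 to 2.46) and 2.42% in the control library (2.19 to 2.67). The difference was -0.197 percentage points, with a Newcombe interval of -0.529 to 0.133 that holds 0. The control library reached down to 1027 UMIs a barcode and the NTD library to 1589, and a shallow barcode is less likely to show 3 rule genes. With every barcode thinned to 1500 UMIs, which left out 3555 control barcodes and 0 NTD barcodes, the share was 1.13% in NTD and 1.82% in control, a difference of -0.685 points (-0.979 to -0.403). With called doublets kept the difference was -0.0835 points (-0.395 to 0.227). With at least 4 of the 11 rule genes required, the difference was -0.372 points (-0.625 to -0.122). Without the negative genes, an alternative chosen after seeing the data, it was -0.653 points (-1.01 to -0.293). Whether the interval held 0 thus depended on the depth setting and on the member rule. With 1 library a group the spread between libraries is unknown. Just inside the threshold, 176 NTD and 144 control barcodes held exactly 3 rule genes. Just outside it, 574 NTD and 442 control barcodes held 2 rule genes and none of the 4 negative genes.

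The rule genes were high in members by construction, and their levels are given as a description. Trp63, which encodes p63, stood at 372 CPM in NTD and 425 CPM in control members, 63.3-fold (NTD) and 50.8-fold (control) above the other barcodes of the same library. A UMI of Trp63 was found in 53.9% of NTD and 60.2% of control members, against 1.17% of other NTD and 1.36% of other control barcodes. Grhl2, the grainyhead-like factor, was at 173 CPM in NTD and 192 CPM in control. Esrp1, an RNA-binding protein that sets epithelial splicing, was at 132 CPM in NTD and 159 CPM in control, and Cdh1, which encodes E-cadherin, at 127 CPM in NTD and 153 CPM in control. Between the libraries these 4 genes differed by log2 ratios of -0.15 to -0.27. Fermt1 (kindlin-1, an integrin activator) was further apart, at 122 CPM in NTD and 183 CPM in control, with log2 NTD over control at -0.58 (95% exact interval -0.89 to -0.29). The ligand gene Wnt6 was at 77.3 CPM in NTD and 105 CPM in control, and the simple-epithelial keratin Krt8 at 87.0 CPM in NTD and 113 CPM in control. Its partner Krt18 was level, at 123 CPM in NTD and 125 CPM in control.

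Mir205hg, the host gene of the epithelial microRNA miR-205, was at 407 CPM in NTD and 373 CPM in control members, 50.6-fold (NTD) and 45.9-fold (control) above the other barcodes. The gene lies on chromosome 1, 193507238 to 193510174, minus strand (GRCm38), and the mature miR-205-5p at 193507503 to 193507524. The microRNA itself is too short for this assay and was not measured. Its mature form is shown because it is the product for which the host gene is known, with the seed (bases 2 to 8) in capitals, from RefSeq (GRCm38.p6).
mmu-miR-205-5p: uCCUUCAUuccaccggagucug
miR-205 is known to repress Zeb1 and Zeb2, the repressors of epithelial genes. In members Zeb1 was at 102 CPM in NTD and 90.7 CPM in control, 0.341-fold (NTD) and 0.281-fold (control) of the other barcodes, and Zeb2 at 151 CPM in NTD and 159 CPM in control, 0.425-fold (NTD) and 0.442-fold (control). Both were thus below the level of the rest of their own library, and neither was far apart between the libraries, with log2 ratios of 0.18 for Zeb1 and -0.07 for Zeb2. Barcodes with a UMI of Pdgfra or Cdh5 could be in the rest but not in the members. The part of the rule in these folds was not tested.

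Epcam and Cldn7, an adhesion molecule and a claudin, were the rule genes with the highest NTD over control ratios. Epcam was at 241 CPM in NTD and 126 CPM in control (log2 0.94, 0.66 to 1.22), and a UMI of it was found in 51.7% of NTD and 34.3% of control members. In the other barcodes Epcam had a log2 ratio of 0.74 and stood at 29.8 CPM in NTD and 17.9 CPM in control, so the difference was not limited to the members. As a mean within clusters 0, 2 and 5, described below, the log2 ratio of Epcam was 0.52. It was 0.17 (-0.70 to 1.15) in cluster 0 and 0.96 (0.25 to 1.74) in cluster 2. Cldn7 was at 74.0 CPM in NTD and 47.6 CPM in control (log2 0.63, 0.16 to 1.12). A promoter of each is shown because it holds 2 E-boxes of the kind bound by Zeb1 and Zeb2 (CACCTG or its reverse complement CAGGTG, searched on both strands, in capitals), in 250 bases before to 50 bases after the start, plus strand, RefSeq GRCm38.p6. They lie at chr17:87635729-87636028 and chr11:69965171-69965470. The table lists another start for Cldn7, upstream, whose window at chr11:69964529-69964828 held 0 such E-boxes and is not printed.
Epcam promoter: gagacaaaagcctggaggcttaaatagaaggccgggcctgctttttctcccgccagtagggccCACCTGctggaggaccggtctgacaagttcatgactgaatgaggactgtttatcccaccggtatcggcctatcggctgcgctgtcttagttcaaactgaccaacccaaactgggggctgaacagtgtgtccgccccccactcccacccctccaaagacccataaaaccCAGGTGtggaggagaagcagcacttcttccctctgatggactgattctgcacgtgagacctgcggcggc
Cldn7 promoter: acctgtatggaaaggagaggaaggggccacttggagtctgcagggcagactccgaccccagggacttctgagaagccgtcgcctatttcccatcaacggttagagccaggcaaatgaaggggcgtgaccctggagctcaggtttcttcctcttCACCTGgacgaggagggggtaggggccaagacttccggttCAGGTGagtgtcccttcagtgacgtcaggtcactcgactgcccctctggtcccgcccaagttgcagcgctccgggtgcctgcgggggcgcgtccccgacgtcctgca
Of 27025 promoters in the table, 1 a gene, 20.03% held at least 1 such E-box and 2.85% held 2 or more. Promoters were found for 7 of the 11 rule genes, and 5 of these held an E-box at some listed start, or 4 with the first listed start alone. A match is a run of letters and not a site shown to be bound.

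Some genes outside the rule were also high in members, and examples with high folds come first. Lypd6b was 22.4-fold above the other barcodes in NTD and 26.9-fold in control. Rnf43, a ubiquitin ligase that removes Wnt receptors, was 20.6-fold above in NTD and 15.7-fold in control, and Pla2r1, a phospholipase A2 receptor, 14.0-fold in NTD and 13.5-fold in control. Frem2, a matrix protein of the skin basement membrane, was 8.98-fold above in NTD and 10.1-fold in control, and the growth factor gene Pdgfa 7.80-fold in NTD and 7.99-fold in control. Of measured genes (20 or more member UMIs over both libraries), 13 of 17 tight junction genes, 8 of 10 desmosome genes, 14 of 16 grainyhead target and tube closure genes and 6 of 6 periderm genes were at least 2-fold above the rest in both libraries. So were 11 of 16 epidermal and basal keratinocyte genes and 9 of 21 basement membrane and hemidesmosome genes, but only 2 of 12 adherens junction genes. Over all 11545 measured genes that share was 3.80%. The keratins of mature skin were near 0, with 4 NTD and 3 control UMIs of Krt5 and 21 NTD and 22 control UMIs of Krt14.

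**Figure D1:**
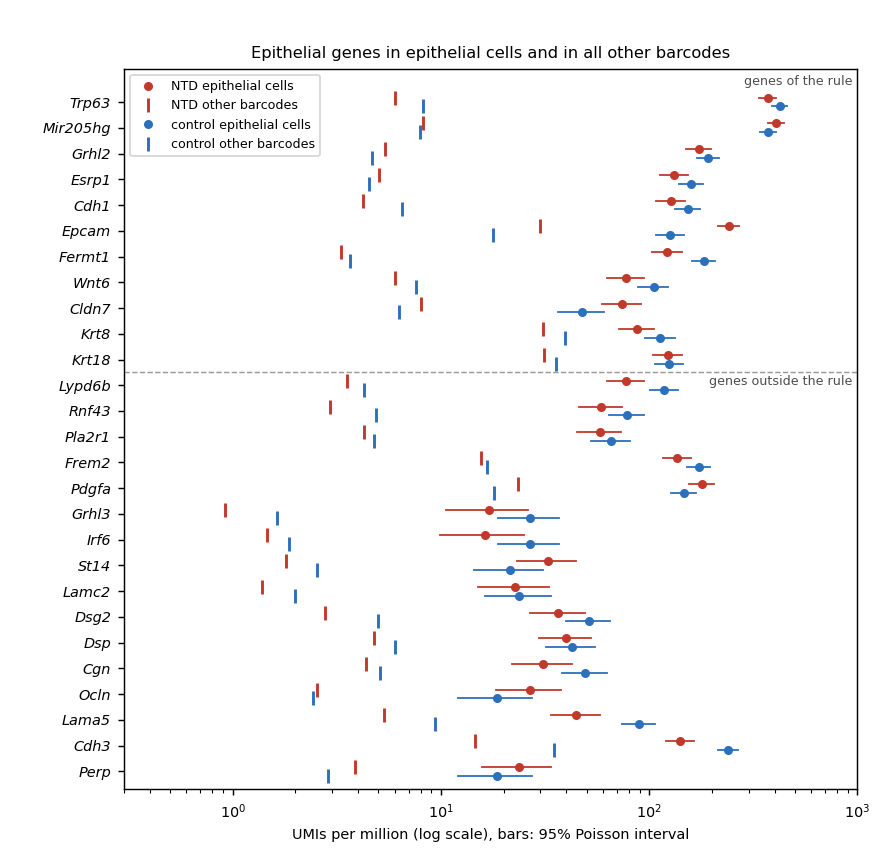
CPM (horizontal, log scale) of the 11 rule genes (above the dashed line) and 16 genes outside the rule (below it), with dots for epithelial members, upright ticks for all other barcodes of the same library, NTD in red above control in blue, and bars for 95% Poisson intervals. Every dot lies right of its own tick, and Epcam shows the widest gap between libraries among the rule genes in favour of NTD.

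Of the markers of other cell types, neural, mesenchymal and erythroid genes were below their level in the rest, and neural crest genes were above it. The rule kept barcodes with a UMI of Pdgfra, a mesenchyme gene, out of the members but not out of the rest. The lower mesenchyme level in members is therefore not independent of the rule. The 12 neural progenitor genes summed to 1577 CPM in NTD and 753 CPM in control members, against 2249 CPM in other NTD and 1083 CPM in other control barcodes. The 12 neuron genes summed to 1477 CPM in NTD and 814 CPM in control members, against 2309 CPM in other NTD and 1534 CPM in other control barcodes. The 8 neural crest genes, among them Tfap2b of the surface ectoderm, summed to 457 CPM in NTD and 573 CPM in control members, against 275 CPM in other NTD and 305 CPM in other control barcodes, and the 10 notochord genes to 103 CPM in NTD and 123 CPM in control members, against 97.2 CPM in other NTD and 66.5 CPM in other control barcodes. Mesenchyme genes summed to 358 CPM in NTD and 427 CPM in control members, and erythroid genes to 11869 CPM in NTD and 10836 CPM in control members. In droplet data, free RNA gives UMIs in cells that do not express a gene, and the embryonic globin Hbb-y was found in 100% of members and of other barcodes in both libraries. Tubb3, a neuronal tubulin, was likewise found in 76.9% of NTD and 48.2% of control members, against 75.1% of other NTD and 52.8% of other control barcodes. The part of such RNA in the results on neural, liver and Hox genes below was not tested.

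Clustering of the 742 members (Leiden, both libraries together) gave 12 clusters, described by their leading genes and not tested, since the clusters were made from the same counts. Cluster 2 was oral ectoderm and pituitary pouch-like, led by genes that include Rtl4, Foxe1, Chl1 and Pitx1, with 41 NTD and 49 control cells. Cluster 5 was otic-like, led by Oc90 (an otoconial protein gene), Sox10 and Lmx1a, with 33 NTD and 33 control cells. Cluster 11, led by Gata4, was gut and foregut endoderm-like and held 0 NTD and 11 control cells. These are the clusters to which the markers gave a name, and the others go by their genes.

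Cluster 0, led by Wnt9b, Chrm3, Sostdc1, Kcnip4 and Piezo2, held 82 NTD and 39 control cells, and 22.8% of NTD and 10.2% of control members. Cluster 1, led by Hoxc5, Hs6st3, Brinp1, Prkcb and Synpo2, held 1 NTD and 119 control cells, and that NTD cell was the deepest NTD member. Cluster 4 (Cntnap5b, Grm7, Hs3st5, Zmat4, Fgf8) held 56 NTD and 14 control cells, and cluster 7 (Gad2, Thrb, Aldh1a3, Cacna2d3, Lgr5) 37 NTD and 4 control cells. Cluster 9 (Gabrp, Tac2, Arhgef37, Arhgap6, Flt1) held 0 NTD and 33 control cells. Clusters 1, 9 and 11 together took 1 NTD cell and 163 control cells, 42.7% of the control members. A cluster mostly of 1 library may be that library and not a cell type. Cluster 6 (Oard1, Glrx5, Tle5) held 43 NTD and 16 control cells, 11.9% of NTD and 4.19% of control members. Cluster 8 (Nebl, Cdh1, Arhgap29) had 15 NTD and 23 control cells, and cluster 10 (Afp, Krt18, Ndufs6) 10 NTD and 12 control cells. In cluster 10, 6 of 10 erythroid and 5 of 11 liver and yolk sac markers counted, against 0 of 25 epidermal and basal keratinocyte markers and 4 of 11 rule genes. Its control cells had a median of 1473.5 UMIs, and the part of free RNA in it was not tested. Cluster 3, with 42 NTD and 29 control cells, was led by the neuronal genes Srrm4os, Fstl5 and Myt1l, which goes against an epithelial name for it. In it 0 of 11 rule genes, 9 of 12 neuron markers and 8 of 12 neural progenitor markers counted. Trp63 was at 66.0 CPM in NTD and 212 CPM in control cells of cluster 3, and Zeb2 at 429 CPM in NTD and 521 CPM in control cells.

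**Figure D2:**
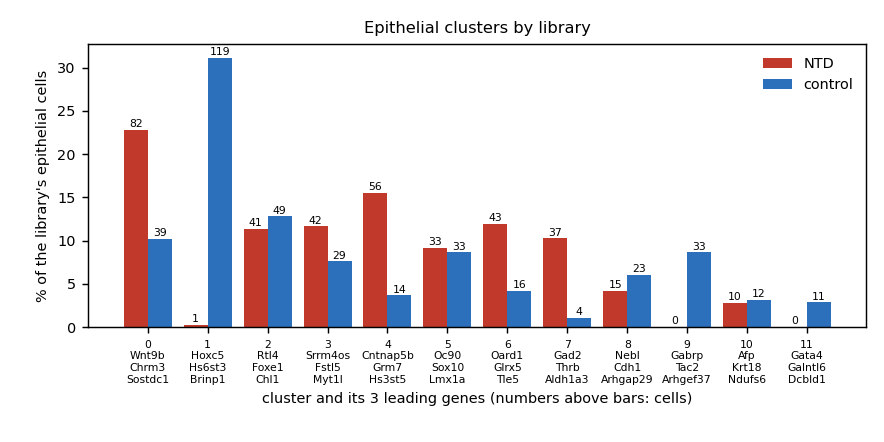
Share of each library's epithelial members in each cluster (percent, NTD in red left of control in blue), with cell numbers above the bars and the 3 leading genes below each cluster number. Cluster 1 takes 31.2% of control members and 0.278% of NTD members, while clusters 0, 4, 6 and 7 are among those with larger shares in NTD.

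Of the 11545 measured genes, 450 (3.9%) were at least 2-fold higher and 425 (3.68%) at least 2-fold lower in NTD than in control members. Among the 5202 genes at 50 CPM or more in either library, 164 were at least 2-fold higher and 75 at least 2-fold lower in NTD members. These counts describe 2 libraries. The mix of clusters differed between them, so values without clusters 1, 9 and 11 stand beside some of the results that moved.

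Genes that mark body region differed between the libraries. The posterior Hox list (genes that pattern neck, trunk and tail) had 29 genes, of which 16 were measured, and all 16 were at least 2-fold lower in NTD members, with a median log2 ratio of -3.81. Summed over the list, NTD members had 27.7 CPM and control members 498 CPM. Hoxc4 was at 4.88 CPM in NTD and 72.1 CPM in control, and Hoxa9 had 1 UMI in NTD and 66 UMIs in control (log2 -5.34, -11.24 to -3.39). Hoxb6 had 0 UMIs in NTD and 43 UMIs in control, at least 13.1-fold higher in control when NTD is set to a floor of 3 UMIs. Of the anterior Hox genes, Hoxa3 was at 2.44 CPM in NTD and 52.1 CPM in control, and Hoxb3 at 5.69 CPM in NTD and 69.2 CPM in control. Without clusters 1, 9 and 11 the posterior median was -4.32, so the gap was not confined to them.

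The Hox difference held for the libraries as a whole. In all other barcodes the posterior list summed to 34.6 CPM in NTD and 663 CPM in control. A posterior Hox UMI was found in 6.94% of NTD members (4.54 to 10.1) and 64.7% of control members (59.6 to 69.5), and in 6.41% of other NTD and 62.7% of other control barcodes. Members and other barcodes thus had like shares within a library, and how much of the Hox RNA in members was free RNA was not tested. Within control members the share was not uniform. It was 78.2% in cluster 1 (69.6 to 85.2) and 81.8% in the otic-like cluster 5 (64.5 to 93.02), against 38.5% in cluster 0 (23.4 to 55.4) and 46.9% in the oral and pituitary-like cluster 2 (32.5 to 61.7), at median depths of 2625, 3271, 2847 and 2970 UMIs.

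Genes of the head ectoderm ran the other way. Of 15 measured of 16 listed, 5 were at least 2-fold higher and 0 at least 2-fold lower in NTD members, and the list median was 0.63. Over all measured genes, 3.9% were at least 2-fold higher in NTD members. In the other barcodes 6 of 16 listed genes were at least 2-fold higher and 1 lower, with a median of 0.73. The shift of this list was thus not limited to members. Six3, a factor of the anterior neural plate and lens placode, was at 48.0 CPM in NTD and 7.44 CPM in control (log2 2.63, 1.71 to 3.82). Its antisense transcript Six3os1 was at 133 CPM in NTD and 30.5 CPM in control, and since strand-aware counting is not stated in the sources used, reads of this pair cannot be told apart. The eye and forebrain factor Lhx2 was at 46.4 CPM in NTD and 13.4 CPM in control, and the forebrain and midbrain factor Otx2 at 49.6 CPM in NTD and 23.1 CPM in control. Both were also higher in NTD in the other barcodes, at log2 1.45 for Lhx2 and 1.58 for Otx2, and in members they stood at 0.616-fold (Lhx2, NTD) and 0.628-fold (Otx2, NTD) of those barcodes. Foxe1, a factor of oral and thyroid primordia, was 10.4-fold above the rest in NTD and had 26 UMIs in NTD and 6 UMIs in control members, 20 and 2 of them in cluster 2. Aldh1a3, a retinoic acid synthesis enzyme of nasal and eye ectoderm, was at 58.6 CPM in NTD and 13.4 CPM in control, and 41 of 72 NTD UMIs lay in cluster 7. Without clusters 1, 9 and 11 the log2 ratio was 2.11 for Six3, 1.51 for Aldh1a3 and 1.49 for Foxe1, and Otx2 fell short of 2-fold, at 0.71.

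**Figure D3:**
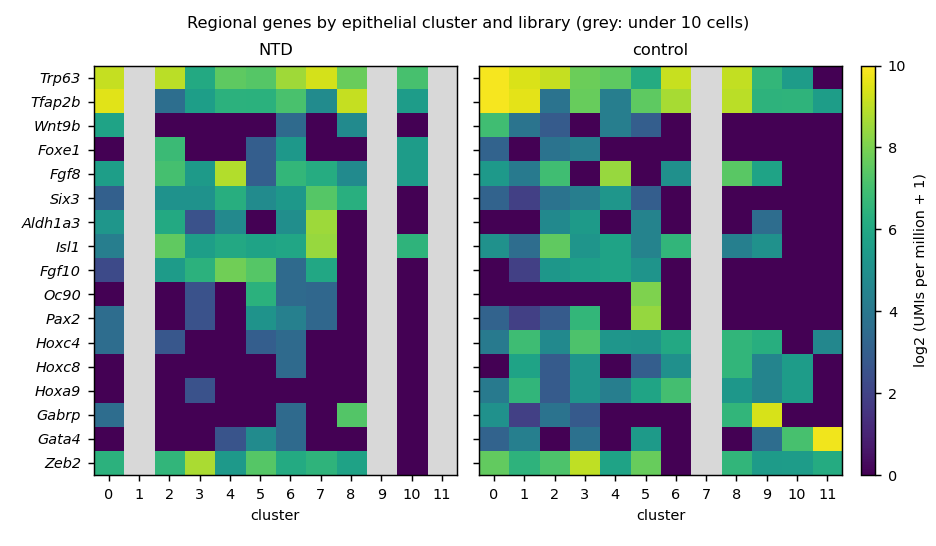
Level of 17 regional and identity genes (rows) in each cluster (columns) of NTD members, left, and control members, right, as log2 of CPM plus 1, with grey for clusters of fewer than 10 cells in that library. Hoxc4, Hoxc8 and Hoxa9 are dark across the NTD panel and lit in most control clusters, and Oc90 and Pax2 are brighter in control cells of cluster 5.

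Of 13 measured Fgf ligands and targets, 5 were at least 2-fold higher and 0 at least 2-fold lower in NTD members, with 8 ratios above 0 and 5 below and a list median of 0.73. Those 5 were the ligands Fgf8, Fgf10, Fgf15 and Fgf17 and the target Spry2. Fgf8, a signal of facial and isthmic epithelium, was at 129 CPM in NTD and 49.8 CPM in control (log2 1.37, 0.96 to 1.81), and Fgf10 at 84.6 CPM in NTD and 17.1 CPM in control (2.28, 1.64 to 3.03). Fgf9 was 11.8-fold above the rest in NTD and 4.45-fold in control, at 54.5 CPM in NTD and 32.0 CPM in control. Of the feedback inhibitors and transcriptional targets, Spry2 was at 31.7 CPM in NTD and 15.6 CPM in control, whereas Etv4 was at 20.3 CPM in NTD and 36.4 CPM in control, so ligands and targets did not move as one. Most Fgf8 UMIs of NTD members lay in cluster 4, which held 92 of 159. With clusters 1, 9 and 11 left out the list median was 0.39, and the log2 ratios were 0.96 for Fgf8, 1.68 for Fgf10 and 0.24 for Fgf9. Summed over the list, NTD cells were above control cells in clusters 2, 4, 5 and 10 and below them in clusters 0, 3, 6 and 8.

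The Bmp list had 2 of 14 measured genes at least 2-fold higher and 0 lower in NTD members. These were the inhibitors of differentiation Id3, at 257 CPM in NTD and 124 CPM in control (log2 1.05, 0.77 to 1.33), and Id4, at 65.1 CPM in NTD and 29.8 CPM in control. Bmp4 itself was at 52.9 CPM in NTD and 29.0 CPM in control (0.86, 0.27 to 1.48). In the other barcodes Id3 was also higher in NTD, at a log2 ratio of 0.77, while Bmp4 had -0.88 there. Of 13 measured Notch genes 3 were at least 2-fold higher, with Hes5, a Notch target of neural progenitors, at 197 CPM in NTD and 69.9 CPM in control. Hes5 stood at 0.746-fold (NTD) and 0.572-fold (control) of the other barcodes, with a log2 ratio of 1.18 in them.

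Wnt genes were near level. Of 7 measured Wnt ligands 0 were at least 2-fold higher and 1, Wnt7a, was at least 2-fold lower in NTD members, with 5 UMIs in NTD and 18 UMIs in control. Wnt3 was at 23.6 CPM in NTD and 37.2 CPM in control, and Wnt4 at 72.4 CPM in NTD and 92.2 CPM in control. The feedback antagonist Notum had 7 UMIs in NTD and 24 UMIs in control. Axin2, Lef1 and the other measured targets gave a list median of 0.02.

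Genes of the basement membrane were mostly lower in NTD members, by less than 2-fold. Of 21 measured basement membrane and hemidesmosome genes 19 had a ratio below 0, against 5553 of all 11545 measured genes, 0 passed 2-fold, and the median was -0.39. The laminin chain Lama5 was at 44.7 CPM in NTD and 89.3 CPM in control (log2 -0.99, -1.48 to -0.52). Fras1, of the same matrix complex as Frem2, was at 285 CPM in NTD and 489 CPM in control (-0.78, -0.97 to -0.59), perlecan (Hspg2) at 49.6 CPM in NTD and 88.5 CPM in control, and the laminin receptor chain Itga3 at 35.8 CPM in NTD and 58.8 CPM in control. The other barcodes gave like ratios, with -0.82 for Lama5, -0.76 for Fras1 and -0.71 for Itga3. Within clusters, Fras1 had a ratio of -0.43 in cluster 0, -0.52 in cluster 2 and -0.69 in cluster 5. As means within these clusters the ratios were -0.28 for Lama5, -0.55 for Fras1, -0.78 for Hspg2 and -0.27 for Itga3. The list median was then -0.27. With clusters 1, 9 and 11 left out the list median was -0.25. The ratios were then -0.87 for Lama5, -0.53 for Fras1, -0.74 for Hspg2 and -0.19 for Itga3.

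Among cell junction genes, P-cadherin (Cdh3) was at 141 CPM in NTD and 240 CPM in control (log2 -0.77, -1.04 to -0.50). The actin linker vinculin (Vcl) was at 39.9 CPM in NTD and 84.1 CPM in control (-1.07, -1.59 to -0.58). Without clusters 1, 9 and 11 the ratios were -0.49 for Cdh3 and -0.65 for Vcl. N-cadherin (Cdh2) was higher, at 294 CPM in NTD and 167 CPM in control, but at 0.703-fold (NTD) and 0.466-fold (control) of the other barcodes. The desmosomal cadherins Dsg2 and Dsc2 had log2 ratios of -0.48 and -0.80, and desmoplakin (Dsp) was level at 39.9 CPM in NTD and 42.4 CPM in control. Tight junction genes were near the background, with 0 of 17 past 2-fold in either direction, 11 of 17 ratios below 0 and a median of -0.10. F11r, a junctional adhesion molecule, was at 31.7 CPM in NTD and 55.0 CPM in control, and occludin (Ocln) at 26.8 CPM in NTD and 18.6 CPM in control.

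Planar cell polarity genes orient cells within an epithelium and are needed for neural tube closure in mice. Of 16 measured, 1 was at least 2-fold lower in NTD members, and 0 were 2-fold higher. That gene, the receptor Fzd6, was at 31.7 CPM in NTD and 71.4 CPM in control (log2 -1.16, -1.75 to -0.62). It was 6.01-fold above the rest in NTD and 9.34-fold in control, and its ratio fell short of 2-fold, at -0.50, without clusters 1, 9 and 11. Its paralogue Fzd3 ran the other way, at 200 CPM in NTD and 124 CPM in control (0.69, 0.40 to 0.98), and did so within clusters 0, 2 and 5, at 1.08, 1.16 and 1.59. Ptk7 was at 87.8 CPM in NTD and 135 CPM in control, while Vangl2 and Celsr1 had ratios of 0.42 and 0.05 with intervals that held 0.

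Of the skin and periderm genes, Tfap2b was at 248 CPM in NTD and 383 CPM in control (log2 -0.63, -0.84 to -0.42), and Tfap2a at 118 CPM in NTD and 152 CPM in control. Both are factors of surface ectoderm and neural crest. Klf5 was at 17.1 CPM in NTD and 32.0 CPM in control. Of 16 measured epidermal and basal keratinocyte genes 1, Bnc1, was at least 2-fold lower, with 1 UMI in NTD and 25 UMIs in control. Of 6 measured periderm genes 2 were at least 2-fold lower in NTD. Gabrp, a GABA receptor subunit, was at 8.13 CPM in NTD and 55.8 CPM in control, and 62 of 75 control UMIs lay in cluster 9. Krt19 was at 13.8 CPM in NTD and 28.3 CPM in control. Grhl3 was at 17.1 CPM in NTD and 26.8 CPM in control, an interval (-1.50 to 0.17) that held 0. Without clusters 1, 9 and 11 the ratio was -0.18 for Tfap2b, -0.79 for Gabrp and -0.05 for Krt19. As a mean within clusters 0, 2 and 5 Krt19 had 0.36, from at most 5 UMIs a cluster and library.

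The otic-like cluster 5 had equal numbers in the libraries, and a minority of its cells carried the leading genes. Of its cells, 9.09% held a UMI of Oc90, 18.2% of Pax2, 22.7% of Lmx1a and 27.3% of Sox10. Of otic markers 7 of 18 counted in it, and of mesenchyme markers 8 of 12, with sums of 2050 CPM for the otic and 719 CPM for the mesenchyme list. In cluster 5, Pax2, an early inner ear factor, was at 35.9 CPM in NTD and 330 CPM in control (log2 -3.07, -4.88 to -1.88), from 5 UMIs in NTD and 49 UMIs in control. Oc90 was at 86.2 CPM in NTD and 256 CPM in control (-1.53, -2.64 to -0.60), Sox10 at 79.0 CPM in NTD and 276 CPM in control, and Lmx1a at 251.4 CPM in NTD and 457 CPM in control. Eya1, of the same list, ran the other way, at 524 CPM in NTD and 296 CPM in control (0.82, 0.27 to 1.40), as did the mesenchyme factor Prrx1, with 38 UMIs in NTD and 17 UMIs in control (1.23, 0.40 to 2.17). The part of mesenchyme RNA in these values was not tested. Fgf10 was at 172 CPM in NTD and 33.6 CPM in control (2.25, 0.94 to 4.10), and Trp63 at 172 CPM in NTD and 67.2 CPM in control (1.32, 0.24 to 2.59). With 33 cells a library, the number of UMIs sets these intervals, and the stage of the cells was not measured apart from these genes.

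The liver and yolk sac list had 5 of 6 measured genes at least 2-fold lower in NTD members and a median of -4.24. Afp, a fetal serum protein gene, had 2 UMIs in NTD and 207 UMIs in control (log2 -6.25, -9.62 to -4.69), Rbp4, a retinol carrier, 3 UMIs in NTD and 82 UMIs in control, and Apoa1, an apolipoprotein, 4 UMIs in NTD and 94 UMIs in control. A UMI of Afp was found in 36.4% of control members and 36.2% of other control barcodes, so members and the rest had like shares. In NTD the shares were 0.556% of members and 0.934% of other barcodes. The rule kept barcodes with a UMI of Hnf4a or Apob out of the members but not out of the rest. Without the 4 negative genes, 396 NTD and 489 control barcodes would have been members. The part of the rule in these shares was not tested. In the other barcodes the list median was -3.55, so the gap was not limited to members.

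Neural genes were higher in NTD members. Of 12 measured neural progenitor genes 7 were at least 2-fold higher, with a median of 1.10 in members and 1.17 in the other barcodes. The median in members was under 2-fold without clusters 1, 9 and 11 (0.92), within clusters (0.88), with scaling by totals (0.92) and in members with a UMI of Trp63 (0.73). The radial glia lipid carrier Fabp7 was at 340 CPM in NTD and 95.2 CPM in control members, and at 466 CPM in other NTD and 155 CPM in other control barcodes. Myt1l, a neuronal zinc finger, was at 52.9 CPM in NTD and 8.93 CPM in control (log2 2.52), with 60 UMIs in NTD and 8 UMIs in control cells of cluster 3 and 0 UMIs in clusters 0, 2 and 5 of either library. Lingo2, Gad2 and Cacna2d3 had ratios of 2.38, 1.80 and 1.73. Gad2 and Cacna2d3 are leading genes of cluster 7, with 37 NTD and 4 control cells. The rule genes Trp63, Grhl2, Cdh1 and Epcam counted as markers in that cluster, as did 6 of 12 neural progenitor markers. The part of cluster size in these ratios was not tested.

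The remaining genes with the widest gaps had other identities. The X-inactivation transcript Xist was at 1577 CPM in NTD and 69.9 CPM in control (log2 4.49), its antisense partner Tsix at 301 CPM in NTD and 28.3 CPM in control, and the Y-linked Eif2s3y at 31.7 CPM in NTD and 166 CPM in control (-2.37). These sex-linked transcripts moved with the groups, so the sex of the embryos and the treatment cannot be told apart. The linker histone Hist1h1e was at 104 CPM in NTD and 28.3 CPM in control, and Hist2h2ac at 84.6 CPM in NTD and 22.3 CPM in control. Arhgap6, Nrk, Zim1 and Gabrg3 were lower in NTD, at -2.42, -2.38, -2.37 and -3.51. Arhgap6 had -1.11 and Zim1 -1.21 with clusters 1, 9 and 11 left out.

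**Figure D4:**
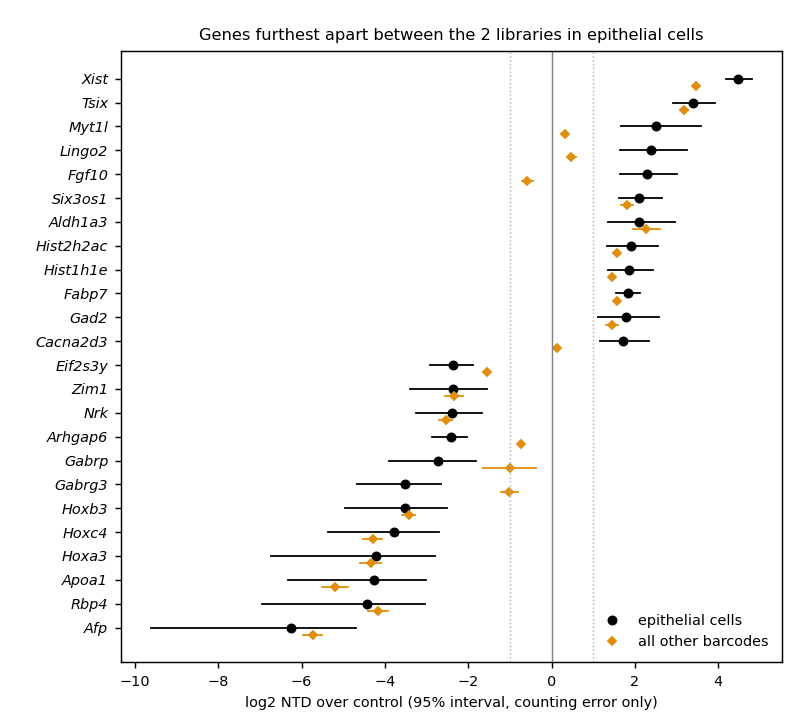
The 12 highest and 12 lowest log2 ratios of NTD over control among genes at 50 CPM or more, with black dots for epithelial members and orange diamonds for all other barcodes, bars for 95% exact intervals of counting error, and dotted lines at 2-fold. Xist and Tsix lead, Hox and serum protein genes close the list, and Fgf10 is the gene for which members and other barcodes lie on opposite sides of 0.

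Of 22 measured folate and one-carbon genes 0 were at least 2-fold higher and 2 at least 2-fold lower in NTD members, with a median of 0.18. Fpgs, which traps folates and methotrexate in cells by adding glutamates, was 1 of these, with 12 UMIs in NTD and 29 UMIs in control. Tyms, which encodes thymidylate synthase, was at 172 CPM in NTD and 131 CPM in control. Of 30 S phase genes 26 had a ratio above 0, against 5992 of all 11545 measured genes, 0 passed 2-fold, and the median was 0.35, with 0.36 in the other barcodes. Of 30 G2 and M phase genes 19 were above 0, 0 passed 2-fold, and the median was 0.15. Of 18 measured p53 targets 2 were at least 2-fold higher, Zmat3 at 37.4 CPM in NTD and 17.1 CPM in control, and Bbc3 with 19 UMIs in NTD and 10 UMIs in control. The p53 target Cdkn1a had a ratio of -0.44 with an interval (-1.47 to 0.52) that held 0. As a mean within clusters 0, 2 and 5, Zmat3 had a log2 ratio of -0.0173, and without clusters 1, 9 and 11 it had 0.87.

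The series asks about N6-methyladenine in DNA and about histone H3 lysine 9 methylation. Alkbh1, a demethylase proposed to act on N6-methyladenine, was at 158 CPM in NTD and 197 CPM in control members (log2 -0.32, -0.60 to -0.05), and had a ratio of -0.35 in the other barcodes. N6amt1 was level, at 31.7 CPM in NTD and 31.2 CPM in control. Of 20 measured H3K9 methylation genes 0 passed 2-fold in either direction, and the median was 0.14. The methyltransferase gene Setdb1 was at 107 CPM in NTD and 118 CPM in control.

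**Figure D5:**
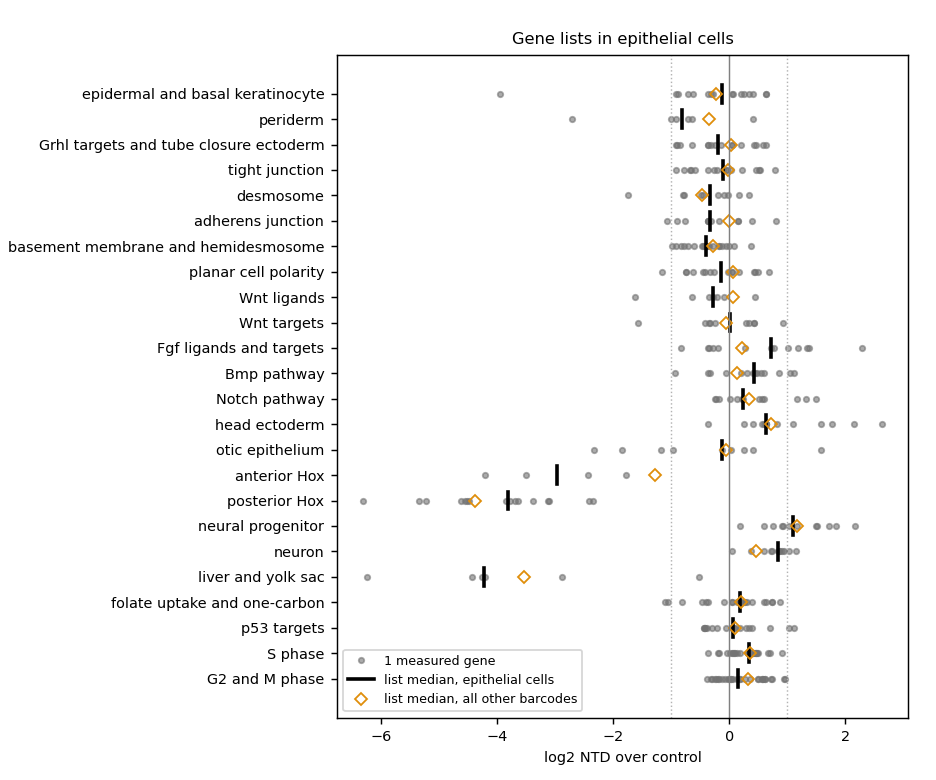
Log2 ratio of NTD over control for each measured gene (grey dots) of 24 gene lists in epithelial members, with a black bar for the list median, an orange diamond for the same median in all other barcodes, and dotted lines at 2-fold. Of the lists drawn, both Hox lists and the liver and yolk sac list have medians below -1, and the neural progenitor list has one of 1.10.

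Of the 43 lists with a measured gene, 30 had a median log2 ratio within 0.5 of 0, 1 had a median at least 2-fold higher in NTD (neural progenitor, which fell under 2-fold in the 4 alternatives above) and 4 at least 2-fold lower (posterior Hox, anterior Hox, liver and yolk sac, mesothelium). The mesothelium list rested on 3 measured genes of 11, Wt1, Krt19 and Bnc1.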

How the data were processed

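Single-cell RNA was measured in 1 NTD and 1 control library. The authors deposited unnormalized UMI counts for each gene and barcode. Cell Ranger 7.0.1 wrote them, as the headers of the files state, and STAR and mm10 appear in the submitters' processing notes. No annotation, intron or strand setting or cell-calling option was found in those sources. The sources name no separate embryos behind a library.

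The members and gene lists were chosen with earlier results of these data known. Barcodes needed 500 genes, 1000 UMIs and at most 10% mitochondrial UMIs, which removed none. Scrublet (scanpy 1.11.5) scored doublets. Its automatic threshold called 0 barcodes in NTD at an expected rate of 0.05 and 2399 at 0.15, so the highest 15% of scores in each library were removed instead, which took 93 NTD and 75 control members.

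Counts were summed over members and scaled by TMM. Genes with at least 20 member UMIs over both libraries were measured. Levels have exact Poisson intervals and log2 ratios, with 0.5 counts added, have exact conditional binomial intervals, at 95%. Zero counts were set to a floor of 3 UMIs per library for bounds. Clusters came from 2000 variable genes, 20 principal components, 15 neighbours and Leiden (leidenalg 0.10.2) at resolution 1, and a marker counted when found in 10% of a cluster's cells at 1.25-fold the other members. Genes were named by a rule: the rule genes, the 12 highest and 12 lowest ratios at 50 CPM or more without globin, mitochondrial and predicted genes, the 12 highest folds over other barcodes, up to 4 genes a list at 20 CPM or more, 5 leading genes a cluster, and Alkbh1. Other genes named were chosen after their values were seen. Some genes that the rule names are not reported here. The ratio step was tested on simulated counts. Gene positions are from GENCODE M21 (GRCm38), and sequences from RefSeq. The alternatives were doublets kept, other gene minima, other member rules, a UMI floor, thinning, other scalings, within-cluster means and clusters left out.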

Additional observations from a re-analysis of the deposited data

Results flagged for a closer look

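For 3 of the named genes at least 2-fold apart in members, the ratio in all other barcodes had the opposite sign, with both intervals clear of 0. Some genes closer than 2-fold in members did so too, such as Tfap2b, at -0.63 in members and 0.37 in the other barcodes, and Bmp4, at 0.86 and -0.88. The difference between the 2 ratios was not tested for any gene, since each group is 1 library. Isl1, a factor of placodes, pharynx and motor neurons, had a log2 ratio of NTD over control of 1.12 in members and -0.21 in the other barcodes. Fgf10 had 2.28 in members and -0.58 in the other barcodes. Oc90 had -1.18 in members and 0.35 in the other barcodes. Its 50 UMIs in cluster 5 came from 9.09% of the 66 cells there, and the intervals do not cover spread between cells. In NTD members 39 of 118 Isl1 UMIs lay in cluster 7, and 45 of 104 Fgf10 UMIs in cluster 4, clusters with more NTD than control cells. Without clusters 1, 9 and 11 the ratio in members was 0.63 for Isl1, 1.68 for Fgf10 and -1.85 for Oc90. It was then -0.18 for Tfap2b and 0.59 for Bmp4.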

How the results depend on the processing

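No paired analysis was possible because each group is 1 library. The member share differed by -0.197 points, and by -0.847 points with at least 1600 UMIs a barcode, -0.685 points with thinning to 1500 UMIs, and -0.653 points without the negative genes of the rule, an alternative chosen after seeing the data. The 450 genes at least 2-fold higher in NTD were 3.9% of the 11545 measured. They became 233 (2.02%) with scaling by UMI totals and 272 (2.36%) relative to genes of like genomic span. As means within clusters 0, 2 and 5 they became 686 (5.94%). Other gene minima also changed the number of genes measured. With at least 100 UMIs a gene, 155 of 5782 (2.68%) were higher, and with at least 1 UMI 2364 of 19895 (11.9%). The 425 lower genes (3.68%) became 670 (5.8%) by totals and 786 (6.81%) within clusters. With at least 100 UMIs they were 65 of 5782 (1.12%), and with at least 1 UMI 3220 of 19895 (16.2%). Lists with a median past 2-fold numbered 5, against 0 with at least 100 UMIs a gene and 3 without clusters 1, 9 and 11, which was also chosen after seeing the data. A list needed at least 3 measured genes for a median, and with at least 100 UMIs a gene only 29 of the 43 lists had one. Without clusters 1, 9 and 11 the mesothelium list had none. The medians were then -4.32 for posterior Hox, -3.11 for anterior Hox, -4.12 for liver and yolk sac and 0.92 for neural progenitor. Of 81 named genes past 2-fold, 72 kept their direction and 49 stayed past 2-fold within clusters. There the ratio turned to -0.48 for Cntnap5b, -0.0173 for Zmat3, 0.13 for Brinp1, 1.55 for Flt1, 0.00087 for Slc2a3, 0.31 for Prkcb, 0.36 for Krt19, -0.32 for Myt1l and -0.32 for Thrb. Myt1l had 0 UMIs in those clusters and Thrb at most 2 a cluster and library, so the 0.5 counts added largely set their values, and Cntnap5b, Prkcb and Krt19 had at most 5. Without clusters 1, 9 and 11 it turned to 0.80 for Flt1 and 0.23 for Prkcb, 2 of 77 measured, of which 58 stayed past 2-fold. Both alternatives hold fewer cells. Past 2-fold stayed 71 by totals, which shift every gene alike, 68 with doublets kept and 81 with at least 1600 UMIs. The number of UMIs limits genes under about 20 CPM, whose intervals span several fold.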
